A study of Mus musculus with 9 samples.

Results

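The genes for receptors with which hematopoietic stem cells (HSCs) home to the bone marrow and hold on to their niche were followed across the genotypes. They were Cxcr4, Itga4, Itga6, Itgb1, Selplg, Cd44, Esam and Vcam1. They were chosen by name, and each symbol was matched to 1 Ensembl gene identifier of the count table. These are 8 of 47643 genes in the table, and all 8 were among the 18205 genes with enough counts to be tested.

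Transplanted stem cells reach the marrow in steps. Selectins on the vessel wall catch glycosylated ligands on the cell, among them Selplg (selectin P ligand) and certain forms of Cd44, and the cell rolls. Cxcr4 is the G protein-coupled receptor for the chemokine Cxcl12 and, when engaged, activates integrins through small GTPases and phosphoinositide 3-kinase (PI3K). The integrin chain Itga4 pairs with Itgb1 to bind Vcam1 and fibronectin, and Itga6 pairs with Itgb1 to bind laminin. Cd44 is also the main receptor for hyaluronan. Esam is a junctional adhesion molecule of endothelium that HSCs share, and Vcam1, best known on endothelium, stroma and macrophages, is found on HSCs as well.

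RNA was sequenced from long-term HSCs (LT-HSCs), sorted as Lin-cKit+Sca1+Flk2-CD48-CD150+ donor cells. TKO cells carried Pik3calox-lox, Pik3cblox-lox and Pik3cd-/- with the Mx1-Cre transgene, so that they lacked p110δ from the germline and lost p110α and p110β, the other class IA catalytic subunits of PI3K, when Cre was induced. δKO cells had the same floxed and Pik3cd-/- alleles without Cre, and WT cells carried Mx1-Cre with wild-type alleles. TKO therefore differed from δKO by the transgene as well as by the excision. δKO differed from WT by the floxed Pik3ca and Pik3cb alleles and the absence of the transgene as well as by Pik3cd. Donor marrow of the C57BL/6 strain had been transplanted into lethally irradiated B6.SJL recipients of 6 to 8 weeks of age. All groups received 2 injections of 250 μg of pIpC each, 48 h apart, and marrow was harvested 4 weeks later. Mx1 drives Cre throughout the hematopoietic system and beyond it, but after transplantation the host stroma carries no floxed allele. Marrow of the 7 recipients in a group was pooled before staining, and 3 libraries were sequenced per genotype. Since nothing in the labels says that the libraries of a genotype came from separate animals, their spread may be technical, and p-values measure only that spread.

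Each library had between 31300343 and 60386097 counts on genes, and between 18180 and 22703 genes were detected in it. The fewest were detected in δKO replicate 1 (18180) and in the δKO library whose number in the count table matches no label (18500), here called the unnumbered δKO library. These same libraries were the most distant from the others for several of the receptors. The Cre target was exon 1 of Pik3ca and exon 2 of Pik3cb, which counts over the whole gene do not resolve. Pik3ca stood at 52.8 to 68.0 CPM (counts relative to the library total, scaled with edgeR's TMM factors) in TKO, 41.3 to 88.2 CPM in δKO and 45.8 to 65.0 CPM in WT. Pik3cb was at 25.5 to 33.9 CPM in TKO, below the 44.6 to 63.6 CPM in WT (-0.86 on the log2 scale, SE 0.39, edgeR adjusted p = 0.9996, DESeq2 adjusted p = 0.665 on all 9 libraries and 0.0461 on WT and TKO alone) and overlapping with the 33.2 to 100.96 CPM in δKO. Pik3cd was at 71.2 to 73.5 CPM in TKO and 38.5 to 91.2 CPM in δKO, both below the 98.2 to 139 CPM in WT. LT-HSC markers were present in every library, with a summed level of 1203 to 2579 CPM over 10 genes. Among markers of other cells, the neutrophil list reached 8910 CPM in WT replicate 3 and 78.1 to 1733 CPM elsewhere. Cxcl12, the ligand of Cxcr4 and a product of marrow stroma, was at 9.18 CPM in WT replicate 2 and at most 0.615 CPM in the other libraries.

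The start regions of Cxcr4 and Cd44 are shown because these were the receptors whose 3 TKO libraries lay below all 6 control libraries. Both were taken from RefSeq (build GRCm38.p6), 5′ to 3′ on the strand of the gene, 250 bases before the transcription start and 50 from it on. Capitals mark the matches found on either strand, and positions are counted from 1 at the 5′ end. The Cxcr4 window is chr1:128592250-128592549 (minus strand) and the Cd44 window chr2:102901616-102901915 (minus strand).
Cxcr4: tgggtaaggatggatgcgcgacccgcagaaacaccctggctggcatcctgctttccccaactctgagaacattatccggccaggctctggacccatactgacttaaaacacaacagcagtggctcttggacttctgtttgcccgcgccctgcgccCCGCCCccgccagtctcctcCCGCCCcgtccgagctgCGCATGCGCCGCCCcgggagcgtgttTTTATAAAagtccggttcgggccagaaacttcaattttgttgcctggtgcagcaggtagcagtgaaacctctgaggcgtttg
Cd44: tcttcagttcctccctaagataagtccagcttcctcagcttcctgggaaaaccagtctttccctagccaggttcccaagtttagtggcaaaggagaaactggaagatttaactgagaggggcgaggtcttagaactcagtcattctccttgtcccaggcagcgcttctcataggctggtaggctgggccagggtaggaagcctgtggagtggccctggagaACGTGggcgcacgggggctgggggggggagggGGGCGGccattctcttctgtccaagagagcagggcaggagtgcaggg
The motifs GCATGCG (part of the NRF1 site), GGGCGG (Sp1), TATAAA (bound by Tbp at core promoters), ACGTG (core of the hypoxia response element) and TGTTTAC (FOXO) were searched on both strands in the 32851 windows of the table. The Cxcr4 window held GCATGCG at position 194 and, overlapping it on the opposite strand, at 193, and 3.58% of all windows held this motif. It also held GGGCGG on the opposite strand at positions 156, 176 and 201. TATAAA matched at position 221 and, overlapping it on the opposite strand, at 219, and was in 13.6% of windows. The Cd44 window held ACGTG at position 222 (19.6% of windows) and GGGCGG at position 254, past the start. GGGCGG was in 35.7% of all windows and also in those of Itga4 and Itgb1, where no other of these motifs occurred. TGTTTAC (3.65% of windows) was in none of these 4. These are matches of letters only.

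Cd44 and Cxcr4 were the receptors whose TKO libraries all lay below both controls. In TKO, Vcam1 lay below WT without lying below δKO, and Itgb1 lay below δKO without lying below WT. Itga4, Itga6, Selplg and Esam overlapped between TKO and either control. Mean Cd44 in TKO amounted to 48.2% of the WT mean and to 54.5% of the δKO mean. Mean Cxcr4 amounted to 54.7% and 35.4% of these means, but the latter rested mainly on the unnumbered δKO library. Vcam1 varied most between the libraries of δKO and of TKO.

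By the criterion used across all genes (edgeR's quasi-likelihood test, Benjamini-Hochberg adjusted p under 0.05 and over 2-fold), 0 of the 8 receptors were called in any comparison. In TKO versus WT the test called 0.00549% of all genes, in δKO versus WT it called 0.00549%, and in TKO versus δKO it called 0%. At an unadjusted p under 0.05, 1 receptor (Cd44, lower) passed in TKO versus WT, where 4.19% of all genes did and 2.5% were lower. In TKO versus δKO 2 passed (Cxcr4 and Cd44, both lower), beside 10.2% of all genes, 5.56% being lower, and in δKO versus WT 0 passed, beside 7.01%. Without the unnumbered δKO library, the receptors at p under 0.05 were Cd44 and Cxcr4 in TKO versus WT and Cd44 and Itga4 in TKO versus δKO (5.81% and 9.63% of all genes in that fit). Vcam1 joined Cd44 and Cxcr4 in TKO versus δKO without δKO replicate 1 (12.2% of all genes in that fit), as did Itga4 without δKO replicate 2 (17.3%), and without δKO replicate 1 Cxcr4 passed in δKO versus WT (5.65%). Leaving out a WT or TKO library did not change which receptors passed. With the genotypes compared alone, Cd44, Cxcr4 and Vcam1 passed in TKO versus WT (9.09%). DESeq2 on all 9 libraries called 1 receptor, Cd44, in TKO versus WT (0.447% of genes called) and 0 in the other comparisons (1.95% and 0.673% of genes called).

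In TKO versus WT, 3 of the 8 receptors had libraries that did not overlap, all lower in TKO (Cxcr4, Cd44 and Vcam1), beside 14.4% of all genes in either direction and 7.47% that were lower. In TKO versus δKO these were 3 (Cxcr4, Itgb1 and Cd44), all lower in TKO, beside 11.7% of genes in either direction and 4.74% that were lower. In δKO versus WT it was 1 (Itgb1, higher in δKO), beside 11.5% of genes in either direction and 4.13% that were higher. Cxcr4 and Cd44 were below all 6 control libraries in TKO, as were 1.69% of all genes, and no receptor was above all 6. The median log2 fold change of the 8 receptors was -0.16 in TKO versus WT (0.02 over all genes), -0.51 in TKO versus δKO (-0.06 over all genes) and 0.35 in δKO versus WT (0.05 over all genes). In the last, 7 of the 8 receptors had a positive log2 fold change, as did 52.8% of all genes. These values depended on single libraries. In TKO versus WT the median was -0.29 without WT replicate 3 and -0.24 without TKO replicate 3. Without δKO replicate 1 the median in TKO versus δKO was -0.16 (0.07 over all genes), and in δKO versus WT it was 0.21 with 6 positive receptors. Without δKO replicate 2 these medians were -0.69 and 0.47. Without the unnumbered library they were -0.41 and 0.31, and 5 receptors were positive in δKO versus WT. The comparisons share libraries, so these directions are not independent of each other.

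**Figure D1:**
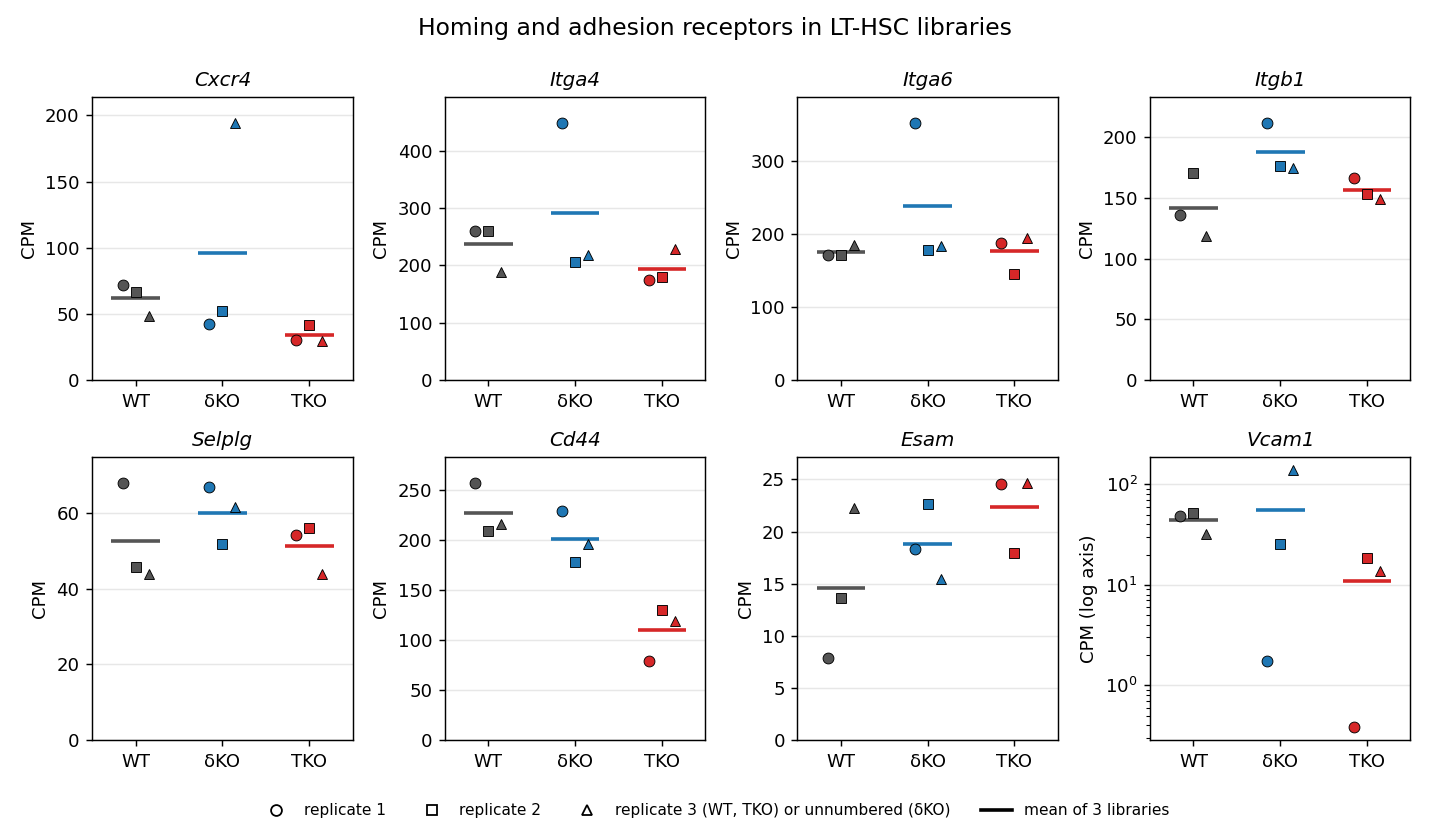
CPM of each receptor gene (y axis, from 0 except for Vcam1, which is on a log axis) in the 9 LT-HSC libraries by genotype (x axis), with 1 symbol per library and the mean of 3 as a line. The 3 TKO libraries lie below all 6 control libraries for Cxcr4 (41.8 and 42.7 CPM at the nearest) and Cd44 (130 and 177 CPM), and 1 δKO library stands far above the others for Cxcr4, Itga4, Itga6 and Vcam1.

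Levels of different genes were compared per kilobase of exon. In WT LT-HSCs Itgb1 (34.7 ± 6.41 CPM per kilobase, SD, n = 3), Cxcr4 (34.5 ± 6.91) and Cd44 (33.5 ± 3.83) stood highest, and these neighbours overlapped. Itga6 (19.5 ± 0.886) lay below all of them without overlap and above Itga4 (16.9 ± 2.93), also without overlap. Selplg (12.3 ± 3.14) overlapped with Itga4. Esam (5.09 ± 2.53) and Vcam1 (4.99 ± 1.17) were lowest, overlapped with each other and lay below Selplg.

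The order differed in TKO. Itgb1 (38.2 ± 2.18 CPM per kilobase) was again first and no longer overlapped with the next gene. Itga6 (19.5 ± 2.99), Cxcr4 (18.8 ± 3.69), Cd44 (16.1 ± 3.98), Itga4 (13.9 ± 2.12) and Selplg (12.02 ± 1.55) followed, each overlapping with its neighbour. Esam (7.81 ± 1.33) and, below it without overlap, Vcam1 (1.22 ± 1.05) were last. In WT, Cxcr4 and Cd44 were thus level with Itgb1, and in TKO they were level with Itga6.

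In δKO, Cxcr4 had the highest mean (53.3 ± 47.0 CPM per kilobase) with an SD nearly as large, and it overlapped with Itgb1 (45.9 ± 5.13). Without the unnumbered library the mean of Cxcr4 was 26.2 and the fourth in order, after Itgb1 (47.4), Cd44 (29.96) and Itga6 (29.4). Cd44 (29.6 ± 3.85), Itga6 (26.4 ± 10.96), Itga4 (20.8 ± 9.78) and Selplg (14.1 ± 1.78) followed, each overlapping with the next. Esam (6.56 ± 1.27) and Vcam1 (6.27 ± 8.31) were lowest again. The mean of Vcam1 was 1.53 without the unnumbered library and 9.30, above Esam (6.65), without δKO replicate 1. Over the 9 libraries together, Itgb1 was at the 95.6th percentile of tested genes by level per kilobase, Cxcr4 at the 94.96th and Cd44 at the 92.4th. Esam was at the 66.5th and Vcam1 at the 55.8th.

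**Figure D2:**
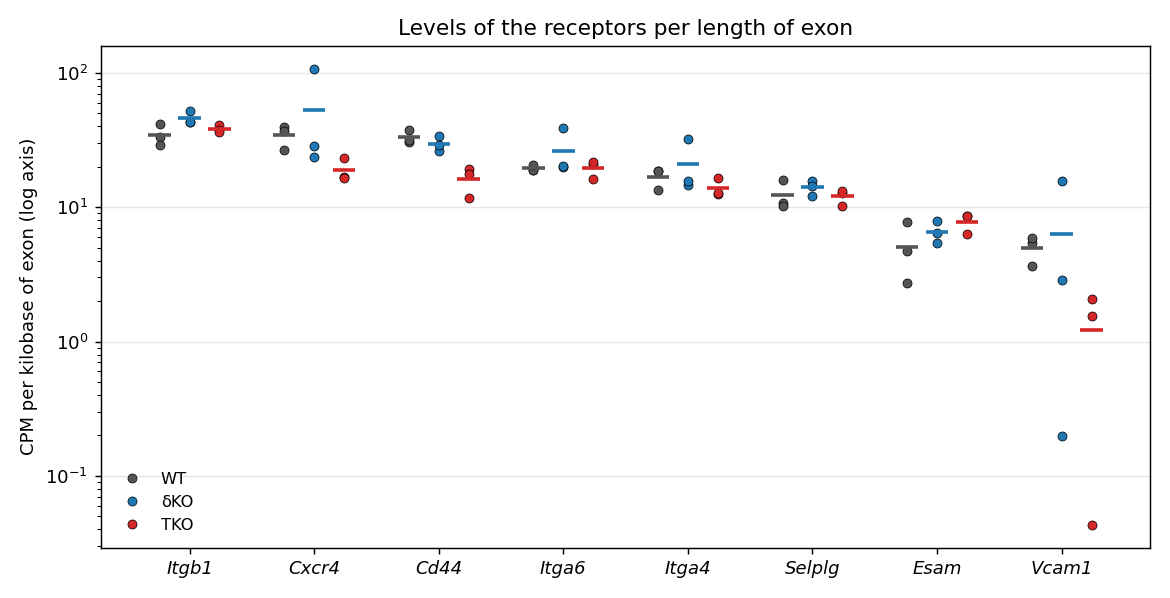
CPM per kilobase of exon (y axis, log scale) of the receptors, ordered by their mean in WT, with 1 point per library and the mean of 3 as a line for WT, δKO and TKO. Itgb1, Cxcr4 and Cd44 lie together in WT (33.5 to 34.7), and in TKO only Itgb1 stays at that level (38.2) while Cxcr4 and Cd44 lie at 18.8 and 16.1.

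The chemokine receptor Cxcr4 (ENSMUSG00000045382.6, chromosome 1, 128588199 to 128592293, minus strand, mm10) was measured at 72.1, 66.6 and 48.3 CPM in WT replicates 1 to 3. Of the δKO libraries, replicate 1 was at 42.7 CPM, replicate 2 at 52.1 CPM and the unnumbered one at 194 CPM. In TKO replicates 1 to 3 it was at 30.6, 41.8 and 29.8 CPM. All 3 TKO libraries were thus the lowest of the 9, by a narrow margin to δKO replicate 1, and 1 δKO library stood apart from every other library. Its log2 fold change was -0.87 (SE 0.50) in TKO versus WT (edgeR adjusted p = 0.9996) with a 95% interval from -1.97 to 0.23. Against δKO it was -1.50 (SE 0.51, edgeR adjusted p = 0.465). Without the unnumbered library the latter was -0.48, and the log2 fold change in δKO versus WT turned from 0.63 to -0.40. The TKO versus WT value hardly moved without that library (-0.88).

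These are bulk samples, in which fewer cells of a type and less RNA per cell cannot be told apart. Neutrophils also express Cxcr4, and the summed level of 10 neutrophil genes was 489 to 8910 CPM in WT, 117 to 1733 CPM in δKO and 78.1 to 555 CPM in TKO, highest in WT replicate 3. The cells had been sorted as Lin-cKit+Sca1+, and RNA of neutrophil genes was counted in every library after that sort. The part of neutrophil RNA in the levels of Cxcr4 was not tested.

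The integrin β chain Itgb1 (ENSMUSG00000025809.15, chromosome 8, 128685654 to 128733200, plus strand) varied least of the integrin chains, 1.78-fold from the lowest to the highest library. It was measured at 136, 170 and 119 CPM in WT replicates 1 to 3, and at 166, 153 and 149 CPM in TKO replicates 1 to 3. In δKO it was at 211 CPM in replicate 1, 176 CPM in replicate 2 and 175 CPM in the unnumbered library, so every δKO library was above every WT and every TKO library. Fitted differences were small, with a log2 fold change of 0.40 (SE 0.22) in δKO versus WT (edgeR adjusted p = 0.713). It was -0.26 (SE 0.22) in TKO versus δKO, and -0.17 without δKO replicate 1. In TKO versus WT it was 0.14 (SE 0.22) with a 95% interval from -0.35 to 0.63, 0.29 without WT replicate 2 and 0.025 without WT replicate 3.

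The partner chain Itga4 (ENSMUSG00000027009.18, chromosome 2, 79255426 to 79333123, plus strand) was measured at 260, 261 and 189 CPM in WT replicates 1 to 3, and at 175, 180 and 229 CPM in TKO replicates 1 to 3. δKO replicate 1 was at 449 CPM, δKO replicate 2 at 206 CPM and the unnumbered library at 218 CPM. Apart from δKO replicate 1, the libraries of the genotypes overlapped. For Itga4 the log2 fold change was -0.28 (SE 0.31) in TKO versus WT and -0.58 (SE 0.31) in TKO versus δKO (edgeR adjusted p = 0.545). Without δKO replicate 1 the latter was -0.13, and δKO versus WT turned from 0.30 to -0.16.

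The laminin-binding chain Itga6 (ENSMUSG00000027111.15, chromosome 2, 71745616 to 71858416, plus strand) had nearly the same mean in TKO and WT. It was measured at 171, 171 and 185 CPM in WT replicates 1 to 3 and at 188, 146 and 196 CPM in TKO replicates 1 to 3. In δKO replicate 1 it was at 353 CPM, in δKO replicate 2 at 179 CPM and in the unnumbered library at 184 CPM. δKO replicate 1 stood far above the other libraries, and TKO replicate 2 was the lowest. TKO and WT differed by a log2 fold change of 0.01 (SE 0.28) with a 95% interval from -0.61 to 0.63. Against δKO it was -0.43 (SE 0.28), and without δKO replicate 1 it was -0.04.

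Since the chains pair on the cell surface, their ratio within a library was compared as well, which does not depend on the scaling of the library. The ratio of Itga4 to Itgb1, per kilobase, was 0.448 to 0.557 in WT, 0.342 to 0.619 in δKO and 0.309 to 0.449 in TKO. The WT and TKO ranges met within 0.002 of each other. For Itga6 to Itgb1 the ratio was 0.454 to 0.705 in WT, 0.460 to 0.754 in δKO and 0.429 to 0.595 in TKO. For Itga4 to Itga6 it was 0.661 to 0.985 in WT, 0.744 to 0.821 in δKO and 0.602 to 0.798 in TKO. With 3 libraries on each side, an exact permutation p cannot go below 0.1, so no ratio could pass 0.05. Over the 9 comparisons the exact two-sided permutation p was 0.2 to 1, and after Benjamini-Hochberg adjustment 0.771 to 1. The largest difference was that of Itga4 to Itgb1 in TKO versus WT, -0.43 on the log2 scale, with an exact permutation p of 0.2.

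Among the selectin ligands, Selplg (ENSMUSG00000048163.13, chromosome 5, 113818536 to 113832644, minus strand) was the steadiest of the 8 receptors, with 1.55-fold from the lowest to the highest library. It was measured at 68.0, 45.7 and 43.9 CPM in WT replicates 1 to 3 and at 54.2, 56.1 and 43.8 CPM in TKO replicates 1 to 3. δKO replicate 1 was at 66.9 CPM, δKO replicate 2 at 51.9 CPM and the unnumbered library at 61.6 CPM. The genotypes overlapped throughout. TKO and WT differed by -0.03 on the log2 scale (SE 0.29), with a 95% interval from -0.66 to 0.59. TKO and δKO differed by -0.23 (SE 0.29), which was -0.13 without TKO replicate 3, -0.15 without δKO replicate 1 and -0.33 without δKO replicate 2.

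Cd44 (ENSMUSG00000005087.17, chromosome 2, 102811141 to 102901665, minus strand) separated TKO from both controls by the widest margin of the 8. It was measured at 257, 209 and 215 CPM in WT replicates 1 to 3. In δKO it was at 229 CPM in replicate 1, 177 CPM in replicate 2 and 196 CPM in the unnumbered library. In TKO replicates 1 to 3 it was at 78.9, 130 and 119 CPM. WT and δKO overlapped, and every TKO library was below both. For Cd44 the log2 fold change was -1.05 (SE 0.25) in TKO versus WT (edgeR adjusted p = 0.9996) with a 95% interval from -1.60 to -0.51. Against δKO it was -0.87 (SE 0.25, edgeR adjusted p = 0.465) with an interval from -1.42 to -0.33. In δKO versus WT it was -0.18 (SE 0.25).

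The call on Cd44 depended on the tool. DESeq2 on all 9 libraries gave the same log2 fold change in TKO versus WT (-1.04) with an adjusted p of 0.0350. DESeq2 on WT and TKO alone gave an adjusted p of 0.00679, where it called 2.11% of 27249 genes with any count. Against δKO, DESeq2 on all 9 libraries gave -0.89 with an adjusted p of 0.0466, under the 2-fold limit for a call. Over the 18 alternatives the log2 fold change ranged from -1.20 to -0.87 versus WT and from -1.02 to -0.69 versus δKO, and the unadjusted p was under 0.05 in each. Adjusted p ranged from 0.00679 to 1 versus WT and from 0.0466 to 0.946 versus δKO, with edgeR, DESeq2 or limma.

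Marker levels were set beside Cd44. The summed level of the 10 LT-HSC markers was 1669 to 2069 CPM in TKO, above the 1219 to 1432 CPM in WT and within the 1203 to 2579 CPM in δKO. Its part in the difference in Cd44 was not tested.

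**Figure D3:**
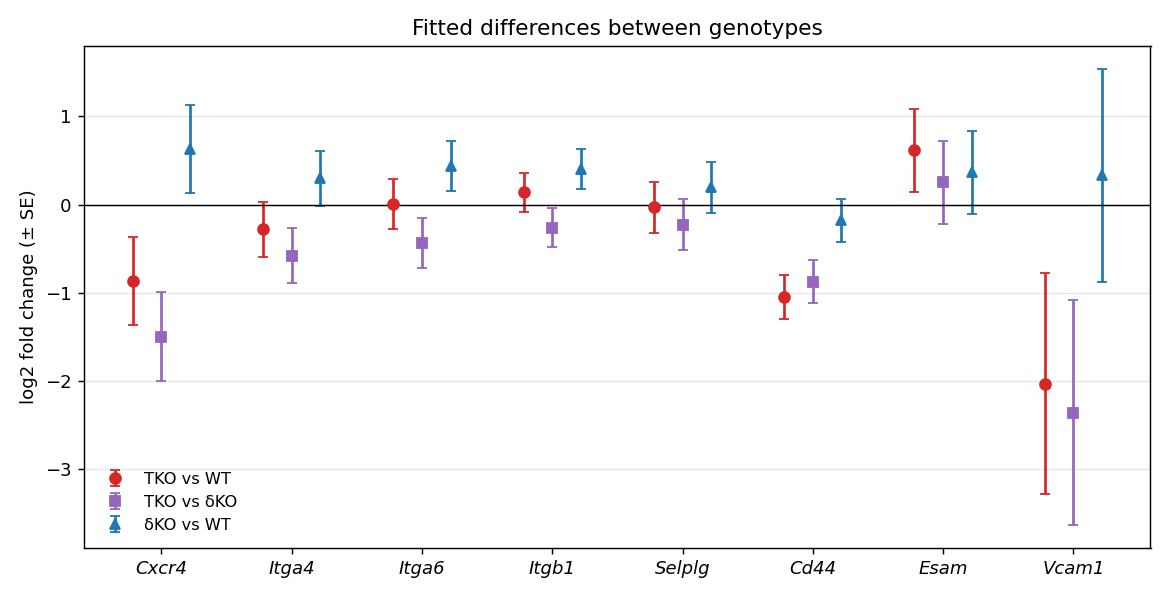
Log2 fold change from the edgeR fit (y axis, points, with bars of 1 SE) of each receptor (x axis) in TKO versus WT, TKO versus δKO and δKO versus WT. Cd44 has the largest distance from 0 relative to its SE in both comparisons of TKO (-1.05 and -0.87, SE 0.25), and Vcam1 has the widest bars (SE 1.26 in TKO versus WT).

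Of the immunoglobulin superfamily receptors, Esam (ENSMUSG00000001946.13, chromosome 9, 37528078 to 37538319, plus strand) was measured at 7.88, 13.6 and 22.3 CPM in WT replicates 1 to 3 and at 24.5, 18.0 and 24.7 CPM in TKO replicates 1 to 3. The δKO libraries held it at 18.3 CPM in replicate 1, 22.7 CPM in replicate 2 and 15.4 CPM in the unnumbered one. The mean of Esam was higher in TKO than in WT, but WT replicate 3 lay among the TKO libraries. Esam had a log2 fold change of 0.62 (SE 0.47) in TKO versus WT (edgeR adjusted p = 0.9996), 0.32 without WT replicate 1 and 1.06 without WT replicate 3. It was 0.25 (SE 0.47) in TKO versus δKO, 0.13 without the unnumbered library and 0.40 without δKO replicate 2.

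Vcam1 (ENSMUSG00000027962.14, chromosome 3, 116109949 to 116129688, minus strand) ranged over 365-fold between libraries. It was measured at 48.2, 52.0 and 32.4 CPM in WT replicates 1 to 3. In δKO it was at 1.76 CPM (44 counts) in replicate 1, 25.4 CPM in replicate 2 and 140 CPM in the unnumbered library. In TKO it was at 0.382 CPM (20 counts) in replicate 1, 18.5 CPM in replicate 2 and 13.6 CPM in replicate 3. All TKO libraries were below all WT libraries, while δKO held both the highest library and the second lowest. Vcam1 had a log2 fold change of -2.03 (SE 1.26) in TKO versus WT (edgeR adjusted p = 0.9996) with a 95% interval from -4.79 to 0.72, and -2.36 (SE 1.27) in TKO versus δKO (edgeR adjusted p = 0.547). Without the unnumbered library the value versus δKO was -0.34, and δKO versus WT turned from 0.33 to -1.70.

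Because Vcam1 marks macrophages and stroma as well, their markers were set beside it. The summed level of 10 macrophage genes was highest in the unnumbered δKO library (73.7 CPM) and next in δKO replicate 1 (61.0 CPM), the libraries with the highest and the second lowest Vcam1. Elsewhere it was 26.0 to 49.1 CPM. Cd68 made up most of these sums, Cd5l was at 0 in all libraries, and C1qa did not exceed 0.143 CPM in any. Adgre1, 1 gene of the 10, encodes the F4/80 antigen. It was at 7.15 CPM in the unnumbered δKO library, at 0 in δKO replicate 1 and at 0.325 CPM in TKO replicate 1. In δKO replicate 1 it was thus unlike the sum, which was 61.0 CPM there. The stromal sum was 10.9 to 26.3 CPM with Adipoq at 0 in all libraries, and the endothelial sum was 29.6 to 46.9 CPM in TKO, above the 7.08 to 24.6 CPM in the controls, with Cdh5 at most 0.445 CPM. Their part in the spread of Vcam1 and Esam was not tested.

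To see which genes vary like each receptor over the 9 libraries, log2 CPM was correlated with that of 10775 genes that averaged 5 CPM or more. These correlations describe 9 libraries that share depth and genotype. Nearest to Cd44 were Sgpp1, a sphingosine-1-phosphate phosphatase (r = 0.965), Ccnb2, a mitotic cyclin (r = 0.961), and Ankrd12 (r = 0.942). Nearest to Cxcr4 were the fucosidase Fuca2 (r = 0.959), the collagen lysyl hydroxylase Plod3 (r = 0.958) and Slc26a8 (r = 0.954). Vcam1 lay nearest to Siglecf (r = 0.986), Acot11 (r = 0.980) and Slc40a1, the iron exporter ferroportin (r = 0.978). For the integrin chains these were Atp6v0a2 (r = 0.971) with Itga4, Tnks1bp1 (r = 0.992) with Itga6 and Eif2s3x (r = 0.963) with Itgb1. Coro1b, an actin-binding protein, lay nearest to Selplg (r = 0.959) and Krba1 nearest to Esam (r = 0.965). No receptor was among the 3 genes nearest to another.

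The wider homing and adhesion machinery was described from 7 lists of related genes, 141 genes without the 8 receptors, of which 132 were tested. At an unadjusted p under 0.05, 11 of these passed in TKO versus WT, 3 higher and 8 lower, which is 8.33% beside 4.19% of all genes. In TKO versus δKO 12 passed, 3 higher and 9 lower (9.09% beside 10.2%), and in δKO versus WT 5 passed, 2 higher and 3 lower (3.79% beside 7.01%). None of them was called by edgeR at the adjusted threshold.

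**Figure D4:**
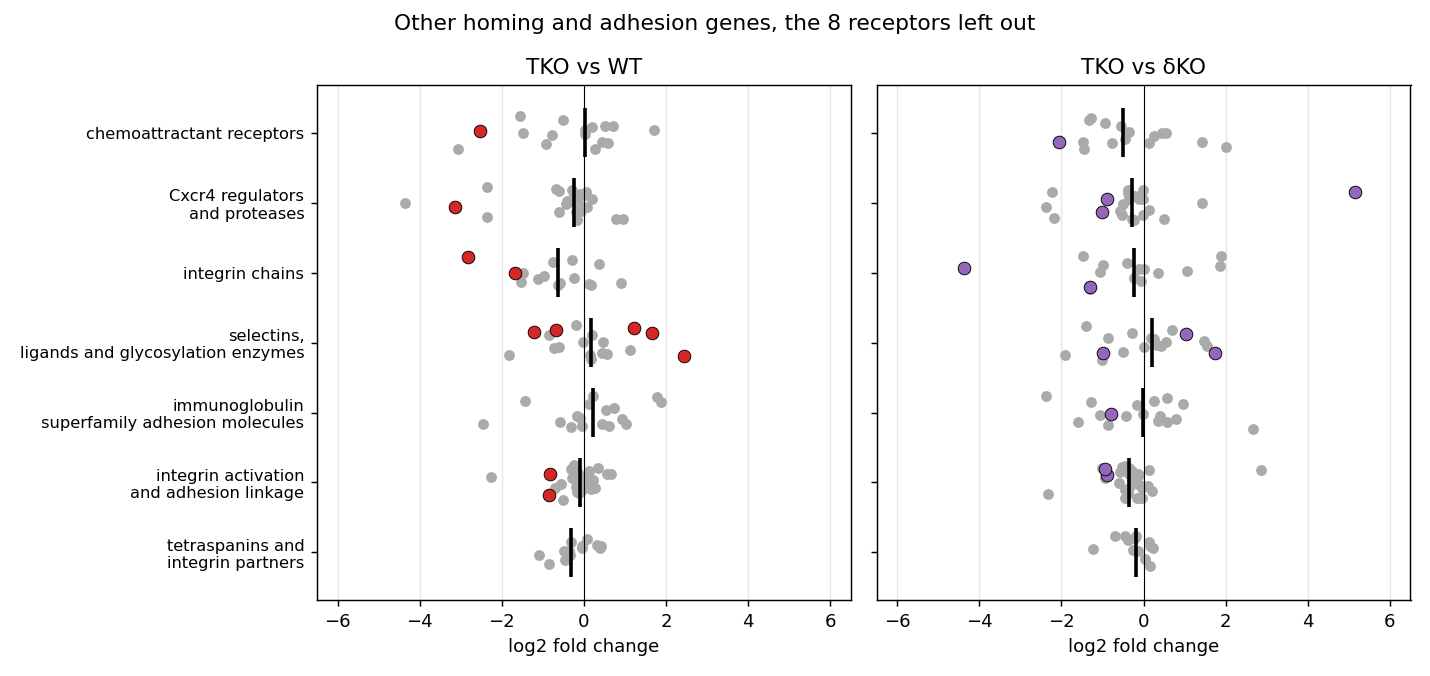
Log2 fold change (x axis) of the tested genes of 7 homing and adhesion lists without the 8 receptors, in TKO versus WT (left) and TKO versus δKO (right), with 1 point per gene, coloured where the unadjusted edgeR p was under 0.05 and grey otherwise, and the median of the genes shown as a bar. The coloured points of the selectin list lie on both sides of 0, and those of the integrin chains and of integrin activation lie below 0.

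The selectin list had the most genes at p under 0.05, counting its members Cd44 and Selplg: 6 of 20 in TKO versus WT (30% beside 4.19% of all genes) and 4 of 20 in TKO versus δKO (20% beside 10.2%). When single libraries were left out, each count ran from 4 to 8. The 4 in TKO versus WT were found without TKO replicate 1, TKO replicate 3, WT replicate 1 or WT replicate 2 (2.54%, 4.31%, 2.46% and 3.52% of all genes). The 8 in both comparisons at once were found without δKO replicate 1 (7.61% and 12.2% of all genes in that fit). Selp, the P-selectin that Selplg binds, was measured at 27.6, 23.7 and 37.4 CPM in WT replicates 1 to 3 and at 78.0, 71.5 and 56.9 CPM in TKO replicates 1 to 3. The δKO libraries held it at 29.4 CPM in replicate 1, 30.6 CPM in replicate 2 and 41.2 CPM in the unnumbered library. Its TKO libraries were above all 6 controls, as were 2.12% of all genes. Selp had a log2 fold change of 1.22 (SE 0.31) in TKO versus WT and 1.03 (SE 0.31) versus δKO, and DESeq2 on all 9 libraries called it in both (adjusted p = 0.0151 and 0.0312). DESeq2 on the genotypes compared called it versus WT (adjusted p = 0.00156) and not versus δKO (adjusted p = 0.1097).

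Podxl, podocalyxin, a sialomucin related to Cd34, was at 12.9, 35.6 and 21.1 CPM in WT replicates 1 to 3 and at 148, 128 and 104 CPM in TKO replicates 1 to 3. In δKO it was at 67.5 CPM in replicate 1, 34.0 CPM in replicate 2 and 13.2 CPM in the unnumbered library, so TKO again lay above all 6. Podxl had a log2 fold change of 2.45 (SE 0.55) in TKO versus WT (DESeq2 adjusted p = 0.0179 on all 9 libraries) and 1.73 (SE 0.53) versus δKO (DESeq2 adjusted p = 0.0955). C1galt1, which builds the core 1 O-glycan found on selectin ligands, lay the other way. It was at 53.3, 98.4 and 55.2 CPM in WT, at 87.8, 83.8 and 85.2 CPM in δKO and at 38.6, 48.4 and 41.4 CPM in TKO, with an edgeR log2 fold change of -0.69 (SE 0.30) versus WT (DESeq2 adjusted p = 0.557), -0.35 without WT replicate 2, and a DESeq2 value of -1.02 versus δKO (adjusted p = 0.0419). Selp and Podxl are also expressed by endothelium and megakaryocytes. The endothelial sum was higher in TKO, as given above, the megakaryocyte sum overlapped (114 to 255 CPM in TKO, 108 to 295 CPM in WT), and their part was not tested.

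Among the other chemoattractant receptors, Cnr2, the cannabinoid receptor of blood cells, was at 15.3, 9.86 and 10.03 CPM in WT, at 8.10, 7.60 and 9.73 CPM in δKO and at 1.05, 0.756 and 4.28 CPM in TKO. Its TKO libraries were below all 6 controls. Cnr2 had a log2 fold change of -2.53 (SE 0.78) in TKO versus WT (DESeq2 adjusted p = 0.0268 on all 9 libraries) and -2.06 (SE 0.77) versus δKO (DESeq2 adjusted p = 0.0496, and 0.193 on the genotypes compared). Without TKO replicate 3 the latter was -3.22. Together with Cxcr4, 2 of the 17 tested receptors of this list were at p under 0.05 in TKO versus δKO (11.8% beside 10.2% of all genes), and 1 to 6 when single libraries were left out, with 6 without δKO replicate 2 (17.3% of all genes in that fit) and 5 without δKO replicate 1 (12.2%). S1pr2 and Ccrl2 were not at p under 0.05 in any comparison of the edgeR fit of all 9 libraries. For S1pr2, DESeq2 on all 9 libraries gave an unadjusted p of 0.0238 in TKO versus δKO and 0.0215 in δKO versus WT. The DESeq2 adjusted p was 0.208 and 0.283. Ackr3, the other receptor for Cxcl12, had too few counts to be tested.

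Of the 18 integrin chains tested, 2 were at p under 0.05 in TKO versus WT, Itga1 and Itgal, and 2 in TKO versus δKO, Itga1 and Itgb3, all lower. That is 11.1% in each, beside 4.19% and 10.2% of all genes. Itga1, a collagen-binding partner of Itgb1, was at 4.92, 1.78 and 1.003 CPM in WT, at 9.33, 3.28 and 10.3 CPM in δKO and at 0.0574, 0.639 and 0.403 CPM in TKO. Its log2 fold change was -4.38 (SE 1.17) in TKO versus δKO (DESeq2 adjusted p = 0.000379) and -2.81 (SE 1.097) versus WT (DESeq2 adjusted p = 0.132). Itgal, a chain of the leukocyte integrin that binds Icam1, had a log2 fold change of -1.68 (SE 0.60) versus WT. DESeq2 called Itgal on WT and TKO alone (adjusted p = 0.00635) but not on all 9 libraries (adjusted p = 0.369). Itgb3 had -1.31 (SE 0.41) versus δKO, which was -0.87 without the unnumbered library. The median over the 18 chains was -0.44 in TKO versus WT and -0.33 in TKO versus δKO. Without the unnumbered δKO library the latter was -0.087, with 9 chains higher and 9 lower. The count in TKO versus WT was 0 without TKO replicate 1, TKO replicate 3 or WT replicate 1 (2.54%, 4.31% and 2.46% of all genes). It was 3 without TKO replicate 2, δKO replicate 1 or the unnumbered δKO library (4.57%, 7.61% and 5.81%). In TKO versus δKO it ran from 2, as without TKO replicate 1 (6.62%), to 4. The 4 were found without δKO replicate 2 (17.3%) or the unnumbered δKO library (9.63%).

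Of the 30 tested genes that activate integrins or link them to actin, 2 were at p under 0.05 in TKO versus WT and 2 in TKO versus δKO, which is 6.67% in each, beside 4.19% and 10.2% of all genes. When single libraries were left out, these ran from 0 to 6 and from 2 to 6, with 6 and 4 without δKO replicate 1 (7.61% and 12.2% of all genes in that fit) and 2 and 6 without δKO replicate 2 (5.12% and 17.3%). Rasgrp2, the exchange factor that turns on Rap1, was at 133, 113 and 106 CPM in WT, at 90.1 to 177 CPM in δKO and at 66.2, 53.4 and 79.9 CPM in TKO. Its TKO libraries were below all 6 controls, with a log2 fold change of -0.82 (SE 0.30) versus WT and -0.88 (SE 0.30) versus δKO, which was -0.53 without δKO replicate 1. The GTPase Rac2 had -0.85 (SE 0.30) versus WT, and the adaptor paxillin, Pxn, had -0.93 (SE 0.31) versus δKO. In TKO versus δKO 26 of the 30 genes had a negative log2 fold change, with a median of -0.34, where 52.8% of all genes were negative and their median was -0.06. Without the unnumbered δKO library 19 of 31 tested genes were negative, with a median of -0.18. In TKO versus WT 19 of the 30 genes were negative, beside 48.8% of all genes. Their median was -0.09 (0.02 over all genes) and ran from -0.21 without TKO replicate 2 to -0.0072 without WT replicate 1. In δKO versus WT 24 of the 30 were positive, beside 52.8% of all genes, with a median of 0.19 (0.05 over all genes). This median was 0.35 without δKO replicate 2 (-0.03 over all genes). It was 0.16 without δKO replicate 1, with 22 of the 30 positive.

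**Figure D5:**
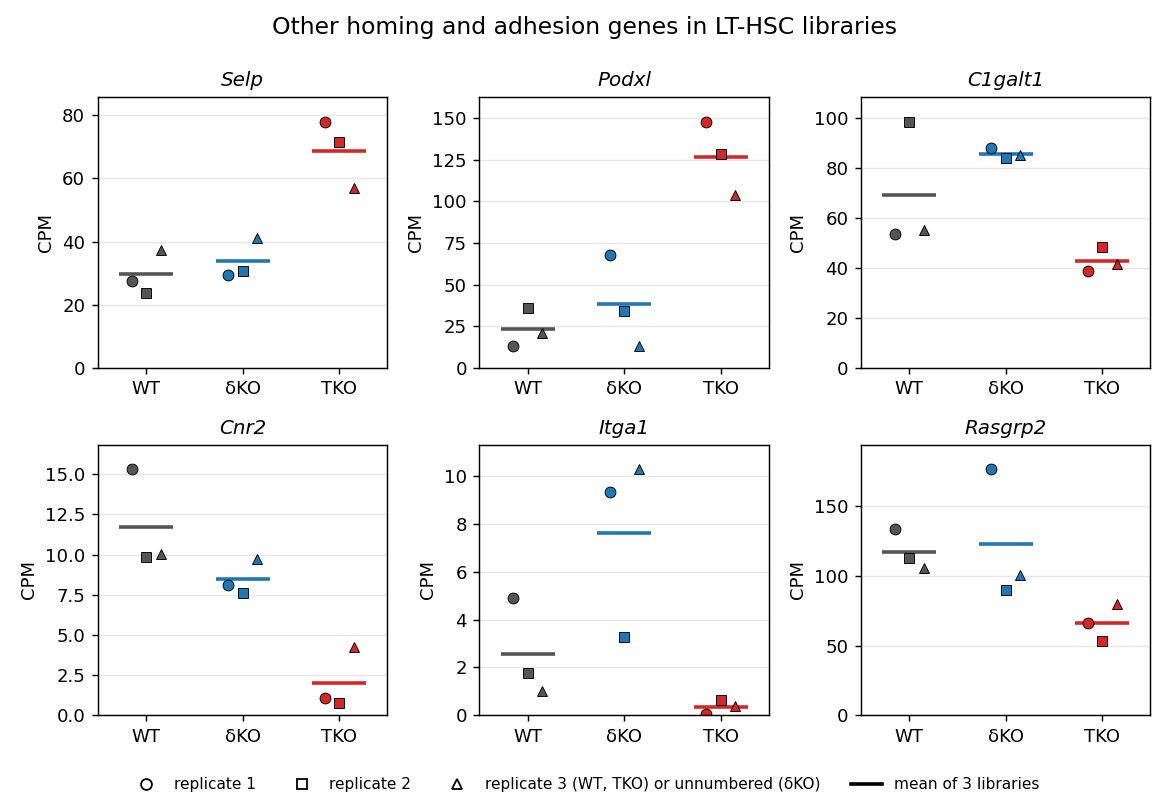
CPM (y axis, from 0) of 6 further homing and adhesion genes in the 9 LT-HSC libraries by genotype (x axis), with 1 symbol per library and the mean of 3 as a line. TKO lies above all 6 control libraries for Selp and Podxl, as it does for 2.12% of all genes. It lies below all 6 for C1galt1, Cnr2, Itga1 and Rasgrp2, as it does for 1.69% of all genes. These 6 were picked from the genes with the smallest p of their lists and do not stand for the lists.

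Of the 23 regulators of Cxcr4 signaling and proteases, 1 was at p under 0.05 in TKO versus WT (4.35%, beside 4.19% of all genes) and 3 in TKO versus δKO (13.04%, beside 10.2%). When single libraries were left out, the first count ran from 0, without TKO replicate 1 or WT replicate 3 (2.54% and 3.29% of all genes), to 4, without δKO replicate 1 (7.61%). The second ran from 1, without TKO replicate 1 or the unnumbered δKO library (6.62% and 9.63%), to 6, without TKO replicate 2 (9.17%). Adam8, a metalloprotease, was at 3.06, 2.60 and 19.9 CPM in WT and at 0.160 to 1.59 CPM in the other 6 libraries, with a log2 fold change of -3.15 (SE 1.12) in TKO versus WT and -4.56 (SE 1.20) in δKO versus WT. DESeq2 on the genotypes compared called both (adjusted p = 0.0148 and 0.00332), and on all 9 libraries it gave no p. Without WT replicate 3 the values were -1.56 and -2.98. That library, the highest, was also the library with the highest neutrophil sum, and the part of neutrophil RNA was not tested. Lasp1, an actin-binding protein that attaches to chemokine receptors, had -1.02 (SE 0.34) in TKO versus δKO and -0.66 without the unnumbered library. Rgs16, which shortens G protein signals, had 5.16 (SE 1.86) in TKO versus δKO. DESeq2 called it there (adjusted p = 0.0317 on all 9 libraries and 0.0347 on the genotypes compared). But its levels ran from 0.0369 to 6.21 CPM and its TKO libraries overlapped with both controls.

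In the immunoglobulin superfamily list, 0 of 19 tested genes were at an edgeR p under 0.05 in TKO versus WT, 1 in TKO versus δKO (Alcam, -0.80, SE 0.35) and 1 in δKO versus WT (Cd200, 3.05, SE 1.25), beside 4.19%, 10.2% and 7.01% of all genes. When single libraries were left out, these counts ran from 0 to 3, from 0 to 6 and from 0 to 4, the highest in both comparisons of TKO without δKO replicate 1 (7.61% and 12.2% of all genes in that fit). Without that library Cd200 was 1.40 in δKO versus WT, and without the unnumbered library Alcam was -0.51 in TKO versus δKO. Bcam, a laminin receptor, was at 3.49, 3.79 and 4.11 CPM in WT, at 1.83, 2.55 and 27.2 CPM in δKO and at 19.4, 13.4 and 8.71 CPM in TKO, so that TKO lay above WT and within the range of δKO. It differed by 1.86 on the log2 scale (SE 0.94) in TKO versus WT (edgeR adjusted p = 0.9996), and DESeq2 called it on WT and TKO alone (adjusted p = 0.000788) but not on all 9 libraries (adjusted p = 0.598). Of the tetraspanins and integrin partners 0 of 13 were at an edgeR p under 0.05 in any comparison (4.19%, 10.2% and 7.01% of all genes were). Leaving out single libraries gave 0 to 2, the 2 in TKO versus WT without δKO replicate 1 (7.61% of all genes). In the fit of all libraries the smallest p of this list belonged to Slc3a2, the heavy chain of an amino acid transporter that binds Itgb1. Its log2 fold change was 0.46 (SE 0.22) in δKO versus WT. Cd37, a tetraspanin of leukocytes, had -1.10 (SE 0.54) in TKO versus WT, which ran from -1.37 to -0.73 over the alternatives. Emb, embigin, had -0.71 (SE 0.42) in TKO versus δKO, which was -0.084 without δKO replicate 1.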

How the data were processed

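RNA-seq of LT-HSCs was analysed in 9 libraries, 3 each of WT, δKO and TKO. Per the labels, the authors used Trim Galore 0.3.7 for trimming and FastQC 0.11.4 for quality, and they aligned reads to mm10 with STAR 2.5.1b. The authors deposited raw counts of 47643 genes, with 1 column per library. How the 2 technical runs of a library were joined, and the annotation, are not given in the sources used here. The authors also deposited DESeq2-normalized signal values, used here in 1 alternative. Samples were grouped by their titles. One δKO column has a number that no label has and was used as a δKO library without a number. The normalized table has instead a δKO column numbered 3, and in 11881 of 11881 genes with at least 50 counts it equalled that column over 1 constant (within 0.001 on the log2 scale), so both hold the same library. Gene names, coordinates and exon lengths came from GENCODE for GRCm38, in which 47224 identifiers matched without their version.

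Genes were kept with edgeR's filterByExpr (count minimum 10, total 15), scaled with TMM factors and tested with edgeR's quasi-likelihood test (edgeR 4.0.16, R 4.3.3), in 1 fit of the 9 libraries by genotype without a block (common biological coefficient of variation 0.805, 6 residual degrees of freedom). Genes were called at an adjusted p under 0.05 over 18205 genes and over 2-fold change. Intervals are 95% intervals from the SE of that fit. CPM per kilobase divides CPM by the merged exon length. The alternatives used other scaling factors, no filter, the replicate number as a block, the number of detected genes as a covariate, only the genotypes compared, adjusted p alone, DESeq2 1.42.0 on all 9 libraries or on those compared, the normalized values as log2(value + 1) in limma 3.58.1, and each library left out. The edgeR script was tested on simulated data. Named genes were the receptors, from each list the 3 other genes with the smallest unadjusted p in any comparison, and for each receptor the 3 genes with the highest correlation. The receptors and lists were chosen with earlier results of these data known. Promoter windows came from RefSeq, where 4 of the 8 receptors had one. Values in the text with p came from tests across all genes unless called exact. Results on 2 genes of the lists are not reported here.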

Additional observations from a re-analysis of the deposited data

How the results depend on the processing

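Of the receptors' log2 fold changes under the alternatives, 410 kept their direction and their side of the threshold, 20 turned and 2 became significant. Those 2 were Cd44 in TKO versus WT with DESeq2 on all 9 libraries or on the genotypes compared (both about -1.05). With all libraries edgeR called 1, 0 and 1 genes in TKO versus WT, in TKO versus δKO and in δKO versus WT. DESeq2 on all 9 libraries called 125, 546 and 188 genes, and on the genotypes compared 574, 267 and 194. On the genotypes compared, edgeR called 9 in TKO versus WT and 0 in δKO versus WT. Leaving out single libraries gave 1 to 4 in TKO versus WT, the 4 without δKO replicate 1.

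The values that turned sign were small or rested on 1 δKO library. For Cxcr4 in δKO versus WT (0.63), the replicate block gave -0.52, the covariate -0.090 and leaving out libraries -0.40 to 0.98. For Vcam1 in δKO versus WT (0.33) the block gave -2.87, the covariate -0.48, limma -1.20 and leaving out libraries -1.70 to 0.90. For Itga6 in TKO versus WT (0.01), upper-quartile factors gave -0.0013, the block -0.017, the covariate -0.041 and leaving out libraries -0.072 to 0.12. Esam in TKO versus δKO (0.25) was -0.062 with the block and -0.025 with the covariate. Selplg in δKO versus WT (0.19) was -0.098 with the covariate. Leaving out libraries, Itga4 in δKO versus WT ranged from -0.16 to 0.50 and Selplg in TKO versus WT from -0.15 to 0.19. For the log2 ratios it ranged from -0.39 to 0.035 (Itga4 to Itgb1), -0.24 to 0.12 (Itga6 to Itgb1) and -0.20 to 0.00029 (Itga4 to Itga6) in TKO versus δKO, and from -0.28 to 0.11 for Itga6 to Itgb1 in δKO versus WT. The cause of these turns was not tested.

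Libraries with the same number in different genotypes did not deviate together (correlations of -0.036 to 0.083 over 7 pairs), so the numbers were not taken as pairs. The replicate block drops the unnumbered δKO library from the contrasts, and with it Cxcr4 in TKO versus δKO was -0.35 instead of -1.50. With it, Cd44, Cxcr4 and Vcam1 were at an unadjusted p under 0.05 in TKO versus WT, Cd44 in TKO versus δKO and Vcam1 in δKO versus WT. In that fit 4.81%, 6.47% and 5.52% of all genes were under 0.05. With 3 libraries per genotype that may come from 1 pool, the common biological coefficient of variation was 0.805, so a missed threshold does not show that levels were alike.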
